A study of Mus musculus with 8 samples.

Results

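The 9 genes described here encode receptors for the hematopoietic growth factors: Csf1r, Kit, Flt3, Csf3r, Epor, Csf2ra, Il3ra, Csf2rb and Csf2rb2. They were taken by symbol, and all 9 were among the 18790 named genes of the per-library count files and of the table of CPM (counts scaled to a common library total). The libraries came from cells sorted out of femoral bone marrow of C57BL/6 mice carrying the transgene Csf1r-EGFP, in which Csf1r promoter sequence drives a green fluorescent protein, so every group carries the reporter. Mice were not treated. The CD11b+ group (4 libraries) was gated as CD11b+, F4/80+, VCAM1+, Ly6G- and low for the reporter, and the CD11b- group (4 libraries) as CD11b-, F4/80+, VCAM1+ and positive for the reporter. The labels write the word macrophage in quotation marks for both groups, and the series title names non-macrophage cells coated with macrophage fragments. The labels give no age, sex or pooling of animals.

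Blood cell precursors read secreted growth factors through these receptors. Csf1r, Kit and Flt3 are receptor tyrosine kinases, for macrophage colony-stimulating factor and interleukin 34, stem cell factor and FLT3 ligand. The others have no kinase of their own and signal through JAK kinases and STAT factors: Csf3r and Epor form homodimers that bind granulocyte colony-stimulating factor and erythropoietin, while Csf2ra and Il3ra are ligand-binding alpha chains for granulocyte-macrophage colony-stimulating factor and interleukin 3 that pair with a common beta chain, Csf2rb. Mice have a second beta chain gene, Csf2rb2, whose product serves interleukin 3. In marrow Csf3r is known for granulocytes, Epor for erythroid precursors, Csf1r for monocytes and macrophages, Kit for progenitors, early erythroid cells and mast cells, and Flt3 for lymphoid, dendritic and early myeloid progenitors.

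Promoter sequences (250 bases before to 50 after a RefSeq start, build GRCm38.p6) were at hand for 7 of the 9 genes, all but Csf1r and Csf2rb. Those of Epor and Csf3r are shown because these genes stood on opposite sides of the comparison. Capitals mark the match to AGATAA, a motif of erythroid zinc finger factors such as Gata1, in Epor (chr9:21963527-21963826, minus strand), where it lies as its reverse complement. In Csf3r (chr4:126024409-126024708, plus strand) they mark the match to GAGGAA, a motif of the myeloid factor PU.1.
Epor: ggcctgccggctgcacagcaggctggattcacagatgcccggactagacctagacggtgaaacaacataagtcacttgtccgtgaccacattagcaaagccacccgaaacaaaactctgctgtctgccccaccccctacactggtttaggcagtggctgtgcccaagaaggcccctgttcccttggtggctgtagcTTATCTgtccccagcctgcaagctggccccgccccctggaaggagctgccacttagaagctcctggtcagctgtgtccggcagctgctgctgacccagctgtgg
Csf3r: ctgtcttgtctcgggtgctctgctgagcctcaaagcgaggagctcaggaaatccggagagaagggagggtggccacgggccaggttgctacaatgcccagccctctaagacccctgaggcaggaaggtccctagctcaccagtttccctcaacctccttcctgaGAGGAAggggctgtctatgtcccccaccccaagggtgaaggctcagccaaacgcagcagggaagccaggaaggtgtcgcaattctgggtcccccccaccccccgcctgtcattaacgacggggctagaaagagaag
Both strands were searched, and matches of 1 motif could overlap those of another. Epor was the only one of the 7 genes with AGATAA in this window, which 11.2% of all 32851 such promoters hold. Variants of these letters were not searched, so other forms of the motif may lie in the other promoters. GAGGAA was found for Csf3r, Kit, Csf2ra and Csf2rb2 and in 28.3% of all promoters. A further pair of motifs did not separate the genes shown: the C/EBP motif TTNCNNAA (40.7% of all promoters) was in neither Epor nor Csf3r but in Csf2ra, Il3ra and Csf2rb2, and CCACCC, the CACC box (31.5%), was in both and in each of the other genes but Flt3. A match is a description of letters and not a binding site.

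The beta chain genes are near-identical, which bears on their counts. Their coding sequences (GENCODE M21 transcripts, 2688 and 2634 bases) matched at 95.2% of 2628 aligned positions, and the longest run without a difference had 242 bases. Of all stretches of 50 bases, 26.0% of those in Csf2rb were also found in Csf2rb2. The aligned 60 bases that differed most are shown with the 13 differing bases in capitals, counted from the first coding base as 304 to 363 in Csf2rb and 307 to 366 in Csf2rb2.
Csf2rb: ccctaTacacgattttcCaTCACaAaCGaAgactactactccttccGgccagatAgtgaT
Csf2rb2: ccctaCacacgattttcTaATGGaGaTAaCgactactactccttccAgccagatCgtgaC
How reads that fit both genes were assigned is not given in the sources used here, so the split between Csf2rb and Csf2rb2 is uncertain and their sum is given too.

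Libraries held 36604660 to 47951234 gene counts in CD11b+ and 27462607 to 35160747 in CD11b-, and with 0 counts a library still leaves room for a level of 0.0627 to 0.110 CPM (3 counts, counting error only). The sort gene Itgam, which encodes CD11b, was 34.8-fold higher in CD11b+ (adjusted p = 0.00215), and Adgre1, which encodes F4/80 (4.10-fold), Vcam1 (3.84-fold) and Ptprc, which encodes CD45 (1.68-fold), were higher and called too. Of 17 resident macrophage markers all had counts in both groups, with summed levels of 1729 to 1984 CPM in CD11b+ and 1420 to 1918 CPM in CD11b-. Apoe alone averaged 708 ± 115 against 743 ± 125 CPM (SD, n = 4). In this list 3 genes were called higher in CD11b+ (Slc40a1 and the gating genes Adgre1 and Vcam1), 3 lower and 11 not called (median log2 -0.64). The sums therefore do not show that the single markers were alike in the groups. The neutrophil list (12 genes, 70446 to 98930 against 229 to 870 CPM) and the erythroid list (13 genes, 850 to 1519 against 40962 to 55412 CPM) stood far apart in the opposite directions. In these bulk samples, fewer cells of a type and less RNA per cell cannot be told apart. Some genes had 10 CPM or more in 3 libraries of a group and under 1 CPM in the remaining library. They numbered 1 to 5 per library in CD11b+ and 19 to 44 in CD11b-. These were 0.0146% to 0.0726% and 0.301% to 0.683% of all genes at 10 CPM or more in the 3 libraries. Csf2rb (CD11b- replicate 3) and Csf3r (CD11b- replicate 4) were among them.

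Transcripts of the granulocyte-macrophage and granulocyte factor receptors were higher in CD11b+ and the erythropoietin receptor was higher in CD11b-. Of the 9 genes, all of which passed the low-count filter, 5 were higher in CD11b+ (Csf2ra, Csf3r, Csf2rb, Kit and Csf1r), 1 was lower (Epor) and 3 were not called (Csf2rb2, Il3ra and Flt3). The test was edgeR's quasi-likelihood test with Benjamini-Hochberg adjustment over 11965 genes at an adjusted p of 0.05. The background is broad, with 29.7% of all tested genes called, 14.6% higher and 15% lower. The libraries of the groups did not overlap for 6 of the 9 genes, against 36.5% of all tested genes. A called change of at least 4-fold was found for 4 of the 9 (Csf2ra, Csf3r, Csf2rb and Epor), against 13.3% of all, and one of at least 16-fold for 3 of the 9 (Csf2ra, Csf3r and Epor), against 5.49% of all. When each library was left out, 2 to 5 genes were called higher, and the losses were among Csf1r, Kit and Csf2rb. Csf2ra, Csf3r and Epor kept their calls in each of these 8 fits.

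**Figure D1:**
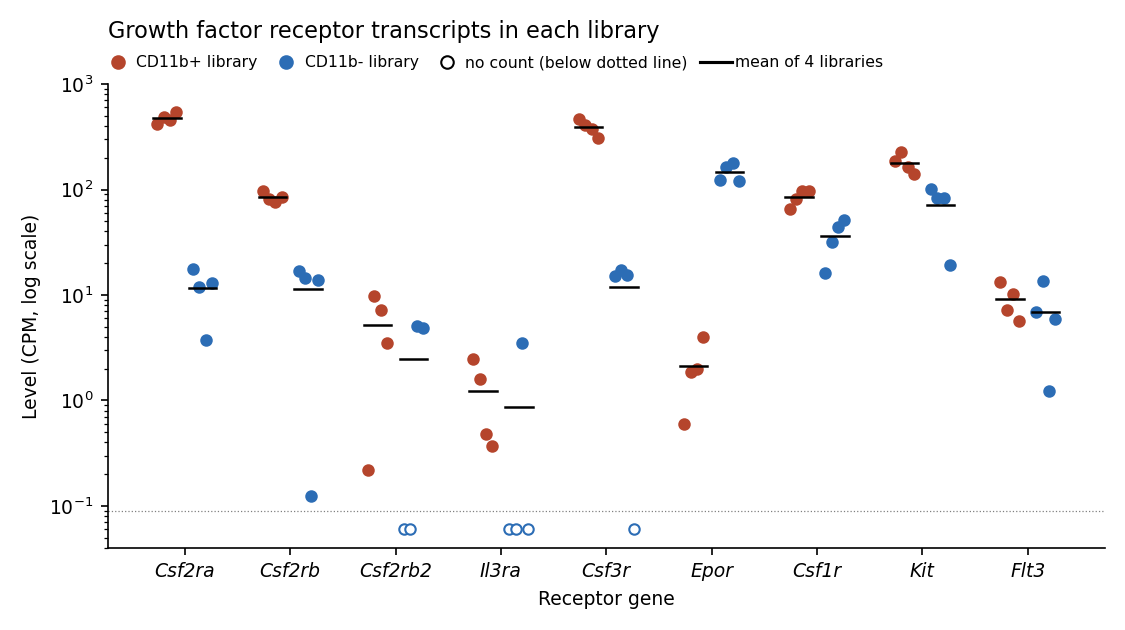
Level of each receptor gene in every library, in CPM on a log axis, with CD11b+ libraries in red, CD11b- libraries in blue and bars at the mean of 4. Open points below the dotted line are libraries without a count. Csf2ra and Csf3r lie above 300 CPM in every CD11b+ library and below 20 CPM in every CD11b- library, and Epor lies above 100 CPM in CD11b- only.

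The ligand-binding chain Csf2ra had the highest level of the set in CD11b+. Libraries of CD11b+ cells held 414, 483, 458 and 545 CPM, and those of CD11b- cells 17.6, 11.9, 3.71 and 13.1 CPM. The lowest CD11b+ library was far above the highest CD11b- library. The difference was 43.1-fold (log2 5.43, SE 0.41, edgeR adjusted p = 1.07e-05), and 225 of the tested genes had a larger fold toward CD11b+. The eosinophil list (9 genes, 7283 to 21071 against 71.6 to 474 CPM), whose cells also use this receptor, was high in the same libraries. So were the neutrophil, primary granule and monocyte lists. Within CD11b+ the eosinophil sum was lowest in replicate 2, which held 483 CPM of Csf2ra. It was highest in replicate 3, which held 458 CPM. The part of any of these lists in the result was not tested.

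Csf2rb, the shared beta chain, followed in the same direction at a lower level. Its CD11b+ libraries held 97.7, 80.7, 76.4 and 85.7 CPM, its CD11b- libraries 17, 14.6, 0.124 and 13.9 CPM. The low value is CD11b- replicate 3, with 4 counts, where the other 3 libraries had 381 to 512. The groups did not overlap, and the fold was 7.89 (log2 2.98, SE 0.90, edgeR adjusted p = 0.0314). The call was lost when any library other than CD11b- replicate 3 was left out (adjusted p up to 0.0664), and without CD11b- replicate 3 the adjusted p was 4.27e-05.

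The second beta chain gene showed another pattern. Csf2rb2 held 0.219, 9.72, 7.25 and 3.50 CPM in the CD11b+ libraries, while those of CD11b- held 0, 0, 5.07 and 4.90 CPM. The groups overlapped, and within CD11b- the library with almost no Csf2rb, replicate 3, had 164 counts of Csf2rb2, whereas replicates 1 and 2 had none. The difference was not called (log2 1.06, 95% interval -2.98 to 5.10, edgeR adjusted p = 0.726). CD11b- replicates 3 and 4 were the only CD11b- libraries with counts of Csf2rb2, so leaving them out fixed CD11b- at 0. The pooled CD11b+ level (5.35 CPM) was then at least 113-fold above a floor of 3 counts over the remaining CD11b- libraries. The fit called it (edgeR adjusted p = 0.0254), but the choice of libraries set this outcome, and no conclusion is drawn from it. The floor covers counting error only, and CD11b+ replicate 1 itself held 0.219 CPM. Summing both genes gave CD11b+ values of 97.9, 90.5, 83.7 and 89.2 CPM, with 17, 14.6, 5.19 and 18.8 CPM for CD11b-. The sum was more even than either gene alone and was 6.81-fold higher in CD11b+ (log2 2.77, SE 0.35, edgeR adjusted p = 0.00022), with adjusted p from 3.9e-05 to 0.00111 when each library was left out in turn.

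**Figure D2:**
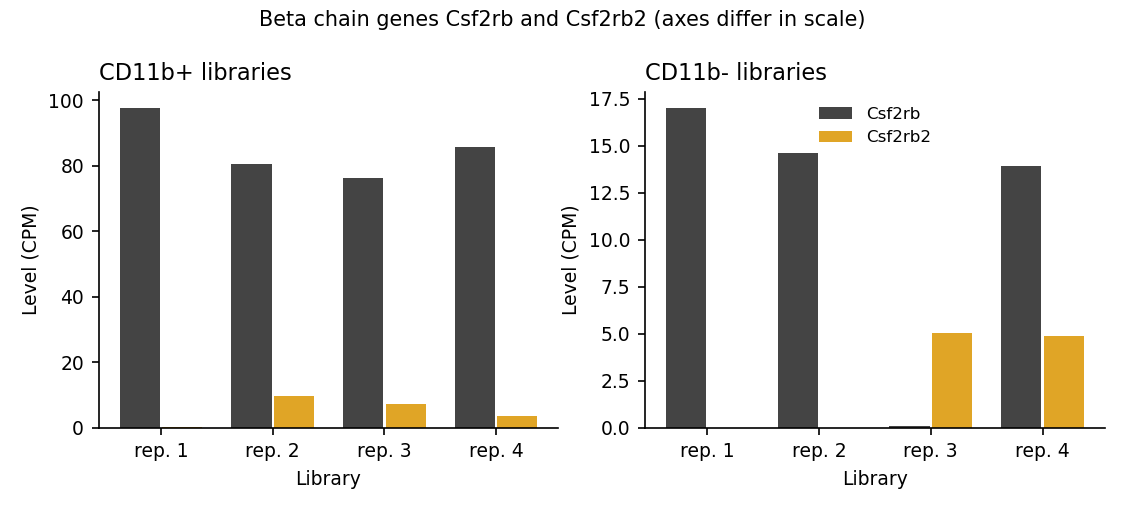
Levels of Csf2rb (grey) and Csf2rb2 (yellow) in each library as bars in CPM from 0, with CD11b+ on the left and CD11b- on the right on a different scale. Csf2rb is between 76.4 and 97.7 CPM in CD11b+, and CD11b- replicate 3 has 0.124 CPM of Csf2rb beside 5.07 CPM of Csf2rb2.

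Il3ra, the alpha chain for interleukin 3, was low and had no count in 3 of the 8 libraries. CD11b+ libraries held 2.49, 1.60, 0.481 and 0.369 CPM, and among CD11b- libraries only replicate 3 had counts (113 counts, 3.49 CPM). The single CD11b- library with counts was the highest of all 8. The difference was not called (log2 0.44, 95% interval -4.14 to 5.01, edgeR adjusted p = 0.909). Leaving out CD11b- replicate 3, the only CD11b- library with counts, left the gene without a count in CD11b-. The pooled CD11b+ level (1.17 CPM) was then at least 35.3-fold above a floor of 3 counts over the remaining CD11b- libraries. The fit called it (edgeR adjusted p = 0.0289), but the choice of library set this outcome, and no conclusion is drawn from it. The floor covers counting error only.

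Csf3r and Epor, the homodimeric receptors, were opposed. Csf3r held 465, 410, 376 and 305 CPM in the CD11b+ libraries, and 15, 17.2, 15.6 and 0 CPM in those of CD11b-. CD11b- replicate 4 had no count, while the other 3 CD11b- libraries had 426 to 603. All CD11b+ libraries were above all CD11b- libraries, by 33.1-fold (log2 5.05, SE 1.03, edgeR adjusted p = 0.00433), and without CD11b- replicate 4 the fold was 25.1. The neutrophil list was high in the same libraries, as given above, and its part in the result was not tested. In CD11b- replicate 4, 11 of 12 neutrophil genes had counts (291 CPM in sum, against 229 to 870 CPM in the other 3). The primary granule list was lowest in the same library (484 CPM in sum, against 1655 to 6883 CPM). In CD11b+, the library lowest in Csf3r, replicate 4, was the highest in this list (88570 CPM).

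Epor had the largest fold of the set. CD11b+ libraries held 0.602, 1.85, 1.96 and 4.01 CPM of it, CD11b- libraries 124, 162, 177 and 120 CPM. The lowest CD11b- library was far above the highest CD11b+ library. The gene was 67.8-fold lower in CD11b+ (log2 -6.08, SE 0.54, edgeR adjusted p = 2.67e-05), and 116 of the tested genes had a larger fold toward CD11b-. Every CD11b+ library had counts of Epor, from 22 to 163, and erythroid list genes were detected there too (12 or 13 of 13 with counts, 850 to 1519 CPM in sum). The erythroid list was far higher in CD11b-, and its part in the result was not tested.

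**Figure D3:**
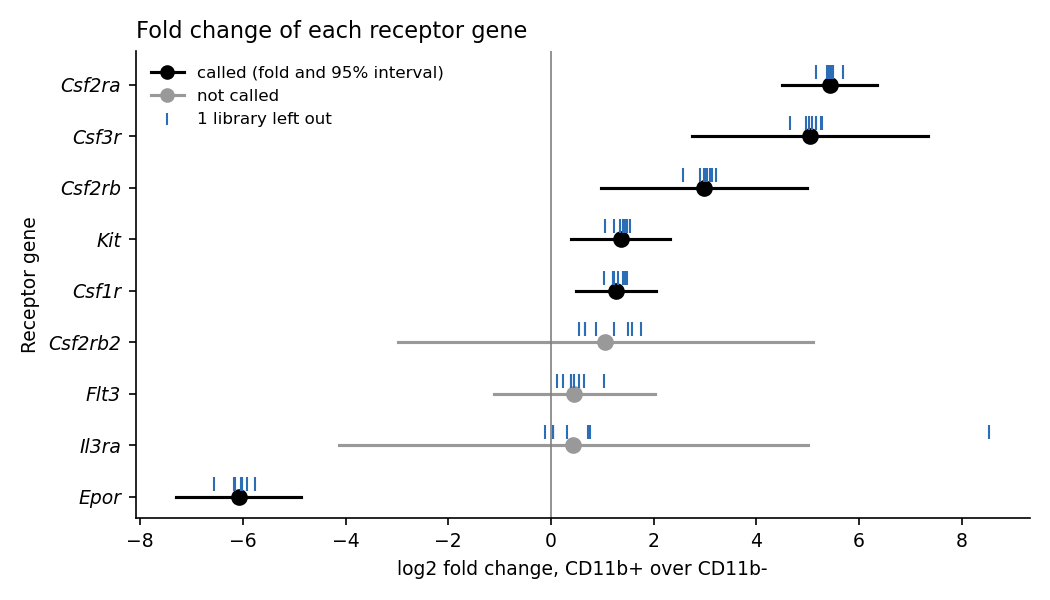
Fold change of each receptor gene, CD11b+ over CD11b- on the log2 axis, as points with 95% intervals (black called, grey not called), and blue ticks for fits with 1 library left out. Epor at -6.08 and Csf2ra at 5.43 lie at the ends, and the tick of Il3ra at 8.54 is the fit without CD11b- replicate 3, in which CD11b- has no count.

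The receptor tyrosine kinases differed less between the groups. Kit held 188, 225, 165 and 139 CPM in the CD11b+ libraries, and 102, 83.6, 82.6 and 19.3 CPM in those of CD11b-. All CD11b+ libraries were above all CD11b- libraries, and CD11b- replicate 4 was lower than the other 3. The fold was 2.56 (log2 1.36, SE 0.43, edgeR adjusted p = 0.0393). The call was lost in 6 of the 8 fits with 1 library left out, those lacking any 1 of the 4 CD11b+ libraries or, in CD11b-, the second or the third replicate, where the adjusted p ran from 0.0502 to 0.0915.

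Marker genes of other Kit-bearing or myeloid cells varied within CD11b- as well. In CD11b- replicates 1 to 4 the basophil and mast cell list (10 genes, 8 or 9 with counts) summed to 4568, 2516, 469 and 259 CPM and the primary granule list (7 genes, all with counts) to 6883, 4495, 1655 and 484 CPM. The mast cell protease gene Tpsb2 had no count in any of the 8 libraries. The CD11b+ libraries summed to 1649 to 4566 CPM for the former list and to 61264 to 88570 CPM for the latter. CD11b- replicate 4, lowest in both lists, was also lowest of its group in Kit and Csf3r. In CD11b+, by contrast, replicate 4 was highest in both lists (4566 and 88570 CPM). That library was lowest of its group in Kit (139 CPM) and Csf3r (305 CPM). The part of these cells in either result was not tested. Without CD11b- replicates 1 and 2, the pair highest in the granule gene Mpo, 3 receptor genes were called higher and 1 lower, and the calls of Kit (adjusted p = 0.0571) and Csf2rb (adjusted p = 0.0783) were lost.

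Csf1r, whose promoter sequence drives the reporter used in both gates, held 65.8, 80.9, 97.0 and 97.7 CPM in the CD11b+ libraries, with 16.1, 31.5, 44.5 and 51.9 CPM in those of CD11b-. The groups did not overlap, although CD11b+ cells were gated as low for the reporter. The fold was 2.42 (log2 1.27, SE 0.35, edgeR adjusted p = 0.0205), a call that ended when the third or the fourth CD11b+ library (adjusted p = 0.0529 and 0.0516) or the second CD11b- library (0.0523) was left out. The log2 change was 1.93 without CD11b- replicates 3 and 4 and 0.85 without CD11b- replicates 1 and 2, and both were called (adjusted p = 0.00511 and 0.0326). The monocyte list (11 genes) summed to 419 to 652 CPM in the former group and to 44.6 to 84.2 CPM in the latter. Most of the CD11b+ sum came from Ly6c2 (338 ± 72.8 against 8.93 ± 5.06 CPM). Of the 10 tested genes of this list 4 were higher in CD11b+ and 6 were not called. The part of the list in the result was not tested. Within CD11b-, replicate 4 was highest in Csf1r and lowest in Kit.

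Flt3 was low in both groups. CD11b+ libraries held 13.2, 7.20, 10.3 and 5.61 CPM, CD11b- libraries 6.94, 13.6, 1.24 and 5.96 CPM. The groups overlapped, with CD11b- libraries both highest and lowest, and the difference was not called (log2 0.46, 95% interval -1.10 to 2.02, edgeR adjusted p = 0.690). Without CD11b- replicates 3 and 4 the sign turned (log2 -0.087).

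Levels of different genes were then compared per kilobase of exon (RPKM, with GENCODE M21 exon lengths). In CD11b+, Csf2ra (165 ± 18.9 RPKM, SD, n = 4) ranked first and Csf3r (108 ± 18.6 RPKM) second in each of the 4 libraries, and their ranges did not overlap. Kit (20.1 ± 4.06), Csf1r (14.8 ± 2.62) and Csf2rb (11.7 ± 1.26 RPKM) came next, and neighbours among these 3 overlapped. Flt3 (1.47 ± 0.544), Csf2rb2 (1.09 ± 0.881), Epor (1.06 ± 0.710) and Il3ra (0.416 ± 0.339 RPKM) were lowest and overlapped. In CD11b-, Epor (73.2 ± 14.2 RPKM) ranked first in each of the 4 libraries, far above Kit (8.06 ± 4.05), Csf1r (6.23 ± 2.72), Csf2ra (4.03 ± 2.02) and Csf3r (3.32 ± 2.23 RPKM), which overlapped their neighbours. Csf2rb (1.57 ± 1.05), Flt3 (1.12 ± 0.825), Csf2rb2 (0.526 ± 0.607) and Il3ra (0.294 ± 0.588 RPKM) were lowest. The first ranks held with coding in place of exon lengths.

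The set as a whole summed to 324 ± 9.56 RPKM in CD11b+ and 98.4 ± 16.1 RPKM in CD11b- (SD, n = 4). Csf2ra made up 51.1% ± 5.82 and Csf3r 33.3% ± 5.63 of the sum in CD11b+, and Epor 74.2% ± 3.77 of the sum in CD11b-. The shares of Kit and Csf1r were 6.19% ± 1.11 and 4.57% ± 0.879 in CD11b+ and 8.01% ± 4.07 and 6.52% ± 3.50 in CD11b-. The alpha chain Csf2ra exceeded the beta chains Csf2rb and Csf2rb2 together 10.7-fold to 15.2-fold per length in CD11b+ and 1.19-fold to 2.62-fold in CD11b-. These ratios describe transcripts and were not tested.

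**Figure D4:**
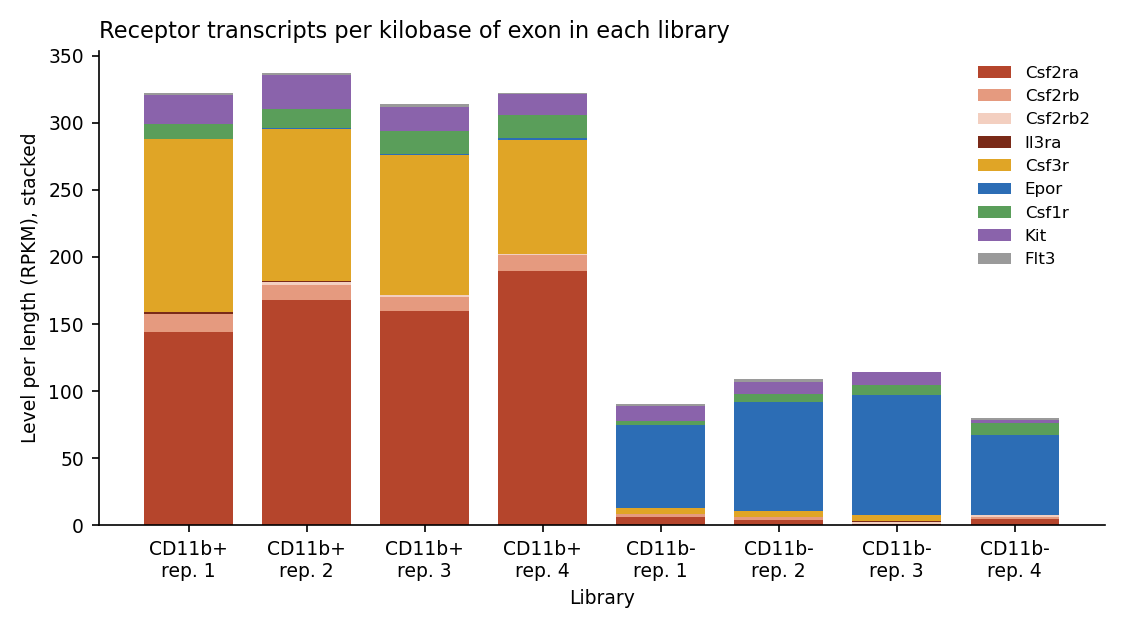
Stacked bars of the level per length (RPKM) of the 9 receptor genes in each library, from 0. Csf2ra (red) and Csf3r (yellow) fill most of each CD11b+ bar, which reach 314 to 337 RPKM, and Epor (blue) most of each CD11b- bar, which reach 79.7 to 114 RPKM.

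Of the 9 ligand genes listed, Csf1, Kitl, Flt3l and Il5 were measured, and Il34, Csf2, Csf3, Il3 and Epo were not analysed here. Of the 3 tested (all but Il5) none was called by edgeR (none at an unadjusted p under 0.05, and none by DESeq2 or limma). Kitl, stem cell factor, averaged 2.41 ± 2.47 CPM in CD11b+ with 11.0 ± 9.48 CPM in CD11b-, and Flt3l at 7.33 ± 5.96 and 4.29 ± 2.23 CPM (SD, n = 4). Il5, which signals through an alpha chain paired with Csf2rb, had no count in any library.

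Other cytokine and growth factor receptors changed in both directions: in CD11b+ 11 of the 37 tested were higher and 7 lower, and 19 were not called (48.6% called, median log2 1.12, against 29.7% and -0.01 over all genes). The interferon gamma receptor chain Ifngr1 was 4.65-fold higher (536 ± 114 against 120 ± 31.3 CPM, edgeR adjusted p = 4.55e-05), and the decoy receptor for interleukin 1, Il1r2, 53.8-fold higher (120 ± 15.5 against 2.21 ± 2.03 CPM, adjusted p = 0.00146, and 92.3-fold if CD11b- replicate 3 was left out). The tumor necrosis factor receptor Tnfrsf1a was 16.5-fold higher (adjusted p = 0.0254, lost at 0.0572 if CD11b+ replicate 1 was left out, and 24.7-fold if CD11b- replicate 2 was), and Igf1r, the receptor of insulin-like growth factor 1, 8.07-fold higher (adjusted p = 0.0130). Lower in CD11b+ were Il7r, the interleukin 7 receptor of lymphoid precursors (503-fold, 0.0703 ± 0.0705 against 38.8 ± 23.1 CPM, adjusted p = 0.00016, and 766-fold if CD11b+ replicate 2 was left out), and Tfr2, an iron-sensing receptor of erythroid cells (9.39-fold, adjusted p = 0.00171). So were the signalling interleukin 1 receptor Il1r1 (0.0308 ± 0.0615 against 13.2 ± 13.1 CPM, adjusted p = 0.0033, 373-fold, or 3597-fold lacking CD11b+ replicate 4 and 200-fold lacking CD11b- replicate 4) and the type I interferon receptor chain Ifnar1 (2.01-fold, 234 ± 33.1 against 483 ± 76.6 CPM, adjusted p = 0.0014). Osmr, the oncostatin M receptor, had 134 counts over the CD11b- libraries and none in CD11b+, and Mst1r had none in any library.

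Among signal transducers more genes were higher than lower in CD11b+. Among the 42 tested there were 15 higher and 4 lower, with 23 not called (45.2% called, median log2 0.77). The tyrosine kinases Fes (20.1-fold, adjusted p = 0.00885, lost without the CD11b- pair highest in Mpo at 0.0511) and Fgr (12.0-fold, adjusted p = 0.00334, and 21.9-fold if CD11b- replicate 3 was left out) were among those with the largest rises. Lower were the kinase Fyn (3.51-fold, adjusted p = 0.00554, lost without the CD11b- pair lowest in Mpo at 0.0669), the phosphoinositide 3-kinase regulatory subunit Pik3r1 (3.49-fold, adjusted p = 0.000575) and the GTPase Hras (2.17-fold, adjusted p = 0.00305). The GTPase Nras (993 ± 184 against 826 ± 254 CPM, adjusted p = 0.363) and the kinase Jak1 (334 ± 34.4 against 462 ± 119 CPM, adjusted p = 0.162, or 0.0274 if CD11b- replicate 2 was left out) were the most abundant and were not called.

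Among negative regulators of these pathways 27 were tested, and 7 were higher, 4 lower, 16 not called (40.7% called, median log2 0.14). The feedback inhibitor Socs2 was 28.9-fold lower in CD11b+ (0.336 ± 0.310 against 10.03 ± 2.32 CPM, edgeR adjusted p = 0.0133, lost without the CD11b- pair lowest in Mpo at 0.0564), the interferon pathway protease Usp18 was 11.0-fold lower (adjusted p = 5.2e-06) and the adaptor Dok1 1.91-fold lower (adjusted p = 0.0105, lost without either CD11b- pair chosen by Mpo, at up to 0.0545). Socs3, an inhibitor of signalling by the granulocyte factor receptor, had no count in CD11b+ and 300 counts over the CD11b- libraries (0, 4.14, 0.834 and 4.68 CPM). Socs3 was at least 134-fold lower if the CD11b+ libraries are taken to hold 3 counts in all, but it did not pass the low-count filter. Higher in CD11b+ were Spry2 (6.61-fold, adjusted p = 0.00335), the adaptor Sla (6.43-fold, adjusted p = 2.44e-05) and the phosphatase Ptpn6 (2.25-fold, 401 ± 49.2 against 185 ± 29.4 CPM, adjusted p = 0.000233). Socs6 was 2.58-fold higher (adjusted p = 0.0212), a call lost if CD11b+ replicate 2, 3 or 4 or CD11b- replicate 2 was left out (0.0510 to 0.0594), and Pias1 was 1.51-fold lower (adjusted p = 0.0491), a call lost in 7 of the 8 fits with 1 library left out, all but that without CD11b- replicate 1 (0.0594 to 0.124).

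Of the lineage transcription factors that mark where these receptors are used, 35 were tested, with 10 higher, 11 lower and 14 not called (60% called, median log2 -0.14). The granulocyte factors Cebpe (119-fold, 1139 ± 112 against 9.95 ± 8.42 CPM, edgeR adjusted p = 0.00016) and Cebpd (45.1-fold, adjusted p = 0.00225, and 72.6-fold if CD11b- replicate 2 was left out) and Tfec (27.3-fold, adjusted p = 0.0063, and 45.1-fold if the same library was left out) had the largest rises in CD11b+. The erythroid factors Klf1 (71.1-fold, 41.8 ± 29.5 against 3046 ± 404 CPM, adjusted p = 3.06e-05) and Tal1 (39.7-fold, adjusted p = 0.000111) and the lymphoid factor Irf4 (69.8-fold, adjusted p = 0.0116, and 153-fold if CD11b+ replicate 4 was left out) had the largest falls. Nfe2, an erythroid and megakaryocyte factor, was 2.01-fold lower (524 ± 61.8 against 1077 ± 198 CPM, adjusted p = 0.0027).

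**Figure D5:**
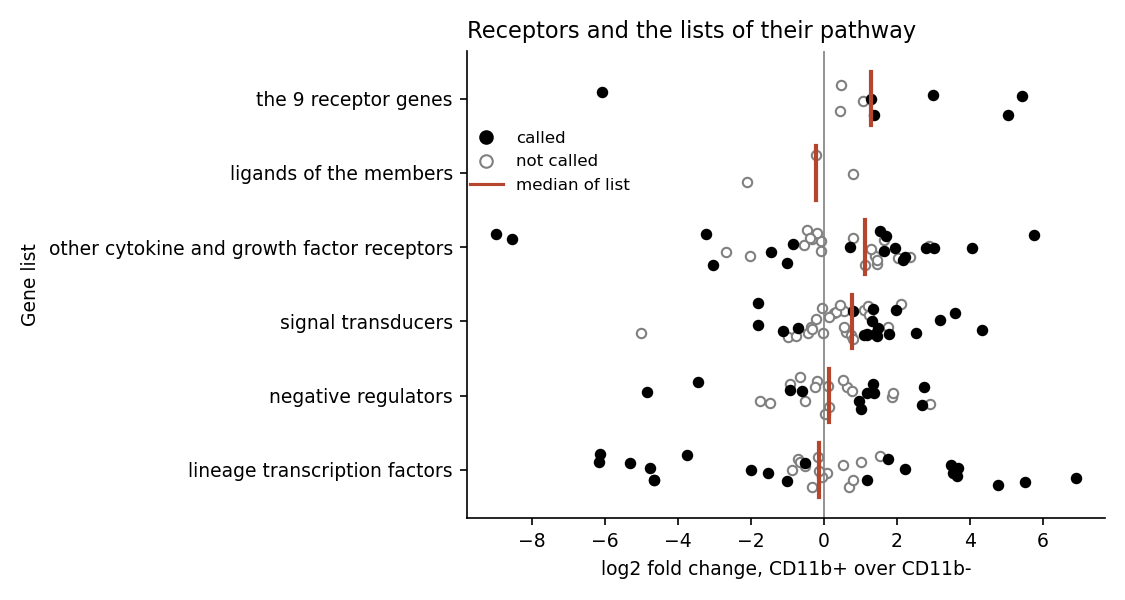
Fold change of every tested gene of the 9 receptors and of each pathway list, CD11b+ over CD11b- on the log2 axis, filled where called, with the list median as a red bar. The receptor genes range from -6.08 to 5.43 with a median of 1.27, and no ligand gene is called.

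The genes whose levels followed each receptor most closely over the 8 libraries were found among 7749 or 7750 other genes with a mean of at least 10 CPM, by Pearson's r of log2(CPM + 1). Nearest to Epor were Dyrk3 (r = 0.998), Mns1 and Nt5c3 (both 0.996), nearest to Csf2ra were Arrb2 (0.999), Arpc1b and Flot2 (both 0.997), and nearest to Csf3r were Rab31, Mapkapk3 and Fes (0.994 each). For Kit they were Mgme1 (0.992), Emilin1 and Kif1b (both 0.990), for Csf1r Ddx41 (0.984), Vps18 (0.981) and Mid1ip1 (0.978), and for Csf2rb Nfam1 (0.994), Marcksl1 and Nfil3 (both 0.992). The 8 points share the group difference and the library depth. For Flt3, Il3ra and Csf2rb2, whose groups overlapped, the highest r were 0.949 (Phospho2), 0.966 (Pmvk) and 0.937 (Tuba4a). Each is the highest of 7750 values over 8 libraries, and how high an r such a search reaches by chance was not tested. These names are therefore a description and not evidence of a shared pattern.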

How the data were processed

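SmartSeq2 RNA libraries of 8 samples, called biological replicates in the design text, were analysed. The authors deposited whole-number counts per gene symbol for each library, in files whose names say FPKM, and a table of CPM, which the counts scaled to library totals gave back within 0.0005. Per the submitters' processing notes the tools were TopHat2, HTSeq 0.10.0 and DESeq2 and the build mm9, without a stated role. Which annotation was used, whether strand was used and where multi-mapping reads went is not given in the sources used here, so overlapping and antisense genes may share reads.

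Of 18817 rows, 27 carry numbers in place of symbols (0.205% to 0.514% of counts) and were left out of totals and tests. Counts were fitted with edgeR 4.0.16 in R 4.3.3 (TMM, filterByExpr at its defaults of 10 counts per library and 15 in total, quasi-likelihood test, prior count 0.125). Standard errors were worked back from the F statistic. Alternatives were DESeq2 1.42.0, limma 3.58.1, RLE factors, other filters, a prior count of 2, the replicate block and leaving out libraries. Leaving out library pairs by Mpo and no scaling were added after seeing the data. Exon and coding lengths came from GENCODE M21 (GRCm38) by symbol. Biopython 1.88 aligned the coding sequences. The fit was tested on simulated counts. No replicate pair agreed within sampling noise.

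The members and lists were chosen with earlier results of these data known. Named genes were the 9 receptors, 4 sort genes, the 3 nearest by r, and of each pathway list the 3 largest rises and falls among called genes, the 2 most abundant and any without counts in a group. Of each marker list the 2 most abundant genes were named too. Some genes that the rule names are not reported here. Adjusted p-values are edgeR's.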

Additional observations from a re-analysis of the deposited data

Results flagged for a closer look

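In 18 groups of 4 libraries (9 genes in 2 populations), 2 had a library set apart by Dixon's criterion, which chance meets in about 1 of 20 groups. Csf3r had 0 CPM in CD11b- replicate 4 and 15, 17.2 and 15.6 CPM in the other 3 CD11b- libraries. Il3ra had 3.49 CPM in CD11b- replicate 3 and no count in the other 3. With those at 0, any count in the remaining library meets the criterion, so the stated rate does not apply to Il3ra.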

How the results depend on the processing

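Of the values recomputed under the alternatives, 371 of 417 were rated the same and 21 moved, 19 lost a call, 3 gained one and 3 turned in sign. A fold was rated the same if it kept its direction and side of the threshold. A number of called genes was if it stayed within 1.5 times the main number, so single calls in it could change. A level was if it stayed within the replicate spread. The prior count of 2 reused the main adjusted p and could not change a call. The causes of the changes were not tested. With 1 library left out, the receptor genes called higher numbered 2 to 5, and the log2 changes ran from 1.03 to 1.49 for Csf1r, 1.05 to 1.55 for Kit, 2.58 to 3.22 for Csf2rb and -0.12 to 8.54 for Il3ra, the highest with no count in CD11b-. Without the CD11b- pair highest in Mpo, 3 receptor genes were called higher, and the log2 changes were 1.80 for Kit and 3.69 for Csf2rb, neither called, and -0.53 for Il3ra. Without the pair lowest in Mpo they were -0.087 for Flt3 and 10.65 for Csf2rb2, the latter against no CD11b- count, and 1 negative regulator was called lower. A filter of 10 CPM in 4 libraries left 4 other receptors called lower, from fewer genes tested, and left out Flt3, Il3ra and Csf2rb2. Summed with Csf2rb, Csf2rb2 gave a log2 change of 2.77. Those pairs also moved folds of listed genes by over 1.5 times, for Tnfrsf1a up to 339, Fgr up to 46.4, Cebpd from 26.9 to 151 and Cebpe from 72.9 to 352. Socs3 was tested in 7 alternatives and called in 3, with adjusted p from 0.0129 to 0.0619.

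Coding in place of exon length gave 29.1 and 12.3 RPKM for Csf1r in CD11b+ and CD11b-, 61.0 and 24.4 for Kit, 3.03 and 2.31 for Flt3, 408 and 9.94 for Csf2ra, and 31.7 and 4.25 for Csf2rb. It gave 155 for Csf3r and 1.04 for Il3ra in CD11b+, and 95.8 for Epor in CD11b-.

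Libraries of both groups carry replicate numbers 1 to 4, and nothing in the labels pairs them. Deviations from the group means of same-numbered libraries had r of 0.0204, 0.0356, 0.0197 and 0.0643. CD11b+ replicate 1 had its highest r with CD11b- replicate 2 (0.0241), and CD11b+ replicate 3 with CD11b- replicate 4 (0.0285). With the replicate block, 4 receptor genes were called higher and 1 lower, and Csf2rb had a log2 change of 3.53 with an edgeR adjusted p of 0.0582.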

Other observations

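Summed levels of the B progenitor and plasmacytoid dendritic cell lists were higher in every CD11b- library than in any CD11b+ library. The B progenitor list had 9 of 10 tested genes lower in CD11b+ (53.3 to 130.6 against 1153 to 2378 CPM in sum), among them Cd79b (4.58-fold, adjusted p = 0.000492). Of 7 plasmacytoid dendritic cell genes 5 were lower (30.5 to 42.1 against 129 to 179.6 CPM), with Tcf4 2.60-fold (adjusted p = 0.0154) and Spib 13.4-fold (adjusted p = 0.0316) lower, and Spib lost its call in 8 of 17 alternatives and Tcf4 in 2 (adjusted p up to 0.0900 and 0.0843). The conventional dendritic cell list overlapped between the groups (24.5 to 69.6 against 46.9 to 88.6 CPM). Of its 5 tested genes 1 was lower, Zbtb46 (27.6-fold, adjusted p = 0.0174, 42.6-fold if CD11b+ replicate 4 was left out and lost at 0.0821 without the CD11b- pair lowest in Mpo), and Cd209a was not called (adjusted p = 0.637). The T and NK cell list had the higher sum in CD11b+ (1123 to 1566 against 321 to 517 CPM), most of it from Nkg7 (1207 ± 202 against 171 ± 76.3 CPM). Of its 7 tested genes only Nkg7 was higher (7.29-fold, adjusted p = 0.000111). Lower were 4 genes, Lck by 7.20-fold (adjusted p = 0.00369), and the median log2 of the list was -2.07.

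All 10 cell cycle genes were lower in CD11b+ (4374 to 4644 against 12822 to 16298 CPM), Rrm2 by 3.35-fold (adjusted p = 2.76e-05) and Mcm6 by 1.67-fold (adjusted p = 0.00322). Of 8 stem and progenitor genes 1 was lower, and Cd34 (adjusted p = 0.499) and Cd93 (adjusted p = 0.459) were not called. Of 6 megakaryocyte and platelet genes 1 was lower, Gp9 (32.1-fold, adjusted p = 0.00713), and Itga2b was not called (adjusted p = 0.0969, or 0.0271 without the CD11b- pair highest in Mpo). No stroma and endothelium gene of 3 was called, Pecam1 and Cxcl12 having adjusted p of 0.927 and 0.486.

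In the lists set beside the receptors, Apoe was not called (adjusted p = 0.924) and Slc40a1 was 1.60-fold higher (adjusted p = 0.0166) among macrophage genes, a call lost without CD11b+ replicate 2 (0.0523) and without the CD11b- pair highest in Mpo (0.0583). Ly6c2 was 38.6-fold higher (adjusted p = 7.59e-05) and Ccr2 not called (adjusted p = 0.0510, but called in 5 of 17 alternatives) among monocyte genes. Prss34 was not called (adjusted p = 0.786, or 0.0103 without the CD11b- pair highest in Mpo) and Hdc was 13.9-fold higher (adjusted p = 0.000456) among basophil and mast cell genes. Mpo (15.2-fold), Elane (66.1-fold), Ngp (283-fold), Camp (376-fold), Prg2 (77.0-fold) and Epx (63.2-fold) were higher and called, and Car2 (34.4-fold) and Rhd (69.6-fold) lower and called. Without CD11b- replicate 1 the fold was 122 for Elane, 129 for Prg2 and 99.2 for Epx, and without CD11b- replicate 3 it was 581 for Ngp. Leaving out the pairs chosen by Mpo gave 9.28 to 44.9 for Mpo, 38.05 to 276 for Elane, 186 to 634 for Ngp, 44.4 to 320.1 for Prg2, 33.7 to 617 for Epx, 27.0 to 70.3 for Ly6c2 and 8.65 to 37.0 for Hdc, and each kept its call. The pairs were picked on the level of Mpo, so that choice set the range for Mpo itself. No conclusion is drawn from it.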
